A study of Homo sapiens with 8 samples.

Results

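Promoters at which the anti-PML::RARA signal fell into several separate peaks were examined in U937-PR9 cells. A gene was taken when the authors had given its symbol to 2 or more peaks of the list. The gap between peaks and the heights were not used for this choice. Of 6546 genes with a promoter peak, 551 genes (8.42%) met this rule, and they held 1174 of the 7169 promoter peaks and of the 15412 peaks in all. The other 5995 genes had 1 promoter peak each, and 8243 peaks carried no gene symbol. U937-PR9 is a monocytic cell line that carries a PML::RARA transgene behind a zinc-inducible promoter. The list holds peaks of the anti-PML::RARA antibody from cells given 100 μM ZnSO4 for 5 h, kept where they were reproducible across 2 replicates. The study also describes uninduced cells, which received water, and an anti-RARA antibody, which makes 8 Cut&Run libraries in 4 groups, and those other groups were not analysed here. Zinc and the fusion protein it switches on cannot be told apart in 1 list of induced cells. Each peak carries a single value, so neither the spread between replicates nor the depth is known, and no difference below was tested. Shares are given with Wilson 95% intervals and medians with 95% order-statistic intervals, which cover the counting of peaks or genes only. Groups are set side by side on these intervals.

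In Cut&Run, an antibody brings a nuclease to a protein on chromatin, and the released fragments are sequenced. A promoter is the stretch around the site where transcription of a gene starts, and many genes have alternative promoters that start different transcripts of the same gene, as the haematopoietic regulators RUNX1 and LMO2 do. PML::RARA joins the PML protein to the retinoic acid receptor RARA, keeps the DNA-binding domain of RARA and drives acute promyelocytic leukaemia. Peak callers draw a peak as 1 unbroken stretch of signal, so 1 broad region with a dip inside it enters a list as several peaks. Distance separates the simplest forms of the pattern, and genes were therefore sorted by the gap from the end of one peak to the start of the next. In 242 genes (497 peaks) every gap was below 1000 bp, in 286 genes (598 peaks) every gap was 1000 bp or more, and 23 genes (79 peaks) had gaps of both kinds.

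RAC1, a small GTPase that controls the actin cytoskeleton and the NADPH oxidase of phagocytes, was 1 of 2 genes with 5 peaks, and the one in which every gap was below 1000 bp. Its gene (ENSG00000136238) lies on the plus strand of chromosome 7 from 6414158 to 6443598 (hg19). The 5 peaks stood within 1913 bp, and their heights, the largest signal inside each peak, were 28, 42, 22, 40 and 20 in the order of transcription. The first 4 had their apexes 1225, 906, 584 and 269 bp upstream of the annotated start and the fifth 264 bp downstream of it, in an intron and 228 bp from a further annotated start. Apexes followed each other at 319, 322, 315 and 533 bp. A copy of the 10-base word ACAGGTTCCT, read from these sequences, lay within 50 bp of each of the first 4 apexes. These copies followed each other at 315, 315 and 320 bp, and their part in the spacing was not tested.

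Like some of the RAC1 peaks, the stretches between the first 4 were rich in many-copy sequence. Of their 16-base words, 74.0%, 77.0% and 80.4% occurred 100 or more times in the genome, counted on both strands, against 1.41% in the gap before the fifth peak. This measure was chosen after the RAC1 sequences had been read. The RAC1 peaks held such words too, 47.65% in the peaks of 28 and 42 together and 60.2% in those of 42 and 22. The share was 14.6% in those of 22 and 40, and 1.77% in the peak of 40 and the fifth peak together. The list holds no read counts by mapping quality, so the part that the placing of reads in many-copy sequence had in these gaps was not tested.

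Most split promoters consisted of a pair. There were 493 genes with 2 peaks, 46 with 3, 10 with 4 and 2 with 5. The 623 gaps inside these genes fell into 283 below 1 kb, 105 from 1 to 2 kb, 87 from 2 to 10 kb and 148 of 10 kb or more. The counts of gaps did not fall off at 1000 bp and were higher just above it than just below. Gaps became sparser toward 2 kb and beyond. Here and below, the heights of a gene are listed in no fixed order along it unless an order is stated. Next to the limit, NFKBID (gap 993 bp, heights 24 and 28), CD300C (988 bp, 26 and 42) and ADORA2A (987 bp, 23 and 17) fell just inside. PIM3 (1004 bp, heights 34 and 20), LINC01137 (1018 bp, 20 and 34) and TDP2 (1029 bp, 42 and 25) fell just outside.

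**Figure D1:**
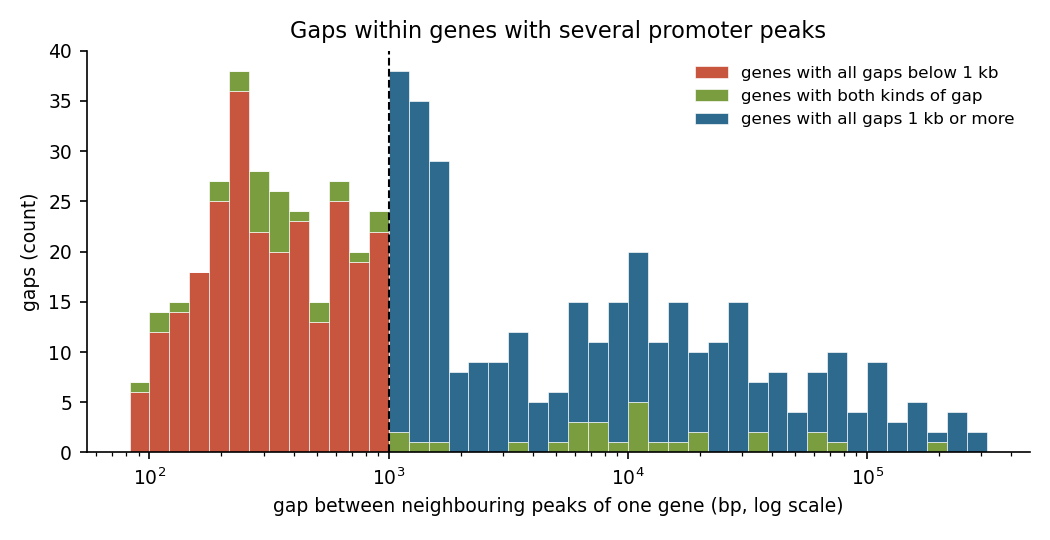
Histogram of the 623 gaps between neighbouring peaks of one gene, on a log axis in bp, stacked by whether all gaps of the gene were below 1 kb, all were 1 kb or more, or both kinds occurred. The dashed line marks 1000 bp. The 105 gaps from 1 to 2 kb continue the crowd below the line, with more gaps just above it than just below. The counts fall toward 2 kb, and 148 gaps lie at 10 kb or more.

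Where every gap was below 1 kb, the peaks lay close. The smallest gap of a gene had a median of 293.5 bp (95% interval 262 to 341, n = 242 genes) and ranged from 94 to 993 bp, beside a smallest gap of 92 bp between any neighbours in the list. Peaks of such genes spanned a median of 2444.5 bp (2303 to 2627) and covered 86.1% of that span (84.2 to 87.3). Single promoter peaks had a median width of 1121 bp (1103 to 1137, n = 5995), and 1 peak of these split promoters had 912 bp (855 to 975, n = 497). The tightest gaps were those of H2BC4, a replication-dependent histone H2B gene (94 bp, heights 26 and 17), and of TRAK2, an adaptor for mitochondrial transport (96 bp, 39 and 20). GMEB2, KAT6A and SRP9 followed at 97 bp each. H2BC4 belongs to a family of near-identical histone genes, its second apex lay 54 bp from a start of H2AC6, and the assignment of its reads is uncertain.

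Heights within these close pairs were unequal. The highest peak of a gene had a median height of 34 (32 to 35) and the lowest a median of 22 (21 to 23), and the median fold between them was 1.40, or 0.49 on the log2 scale (0.43 to 0.56, n = 242). With total signal, which grows with width, the median log2 ratio was 1.31. In 46 of 242 genes (19.0%, 14.6 to 24.4) the fold was 2 or more. A height of 16 is close to the floor of the list, since 7.36% of all peaks had 16 or less and the lowest had 13, and the lowest peak of 39 genes (16.1%) was at 16 or below. Neighbouring peaks below 1 kb apart that carried no symbol had a median log2 difference of 0.52 (0.45 to 0.57, n = 507 pairs), beside 0.49 (0.43 to 0.58, n = 283) for neighbours of the same gene. The heights of the upstream and the downstream peak showed little rank relation (Spearman's rho 0.0039 across 228 genes with 2 peaks). These genes share 1 list and its floor, and the value is a description.

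HDGFL2, a reader of methylated histone H3 (ENSG00000167674, plus strand of chromosome 19 from 4472294 to 4502220), and HIBADH, a mitochondrial enzyme of valine breakdown (ENSG00000106049, minus strand of chromosome 7 from 27565061 to 27702502), had the largest contrast, with 64 against 16 in both. The low peak was narrow in both genes, 145 bp wide in HDGFL2 and 153 bp in HIBADH, and lay 1255 and 821 bp upstream of the start. In HDGFL2 it also lay 237 bp from a start of the unnamed gene ENSG00000267011. The bases within 50 bp of the apex of each high peak are shown to set these tallest members of unequal pairs side by side, with GGGCGG, the GC box, in capitals.
HDGFL2, chr19:4472009-4472109, height 64: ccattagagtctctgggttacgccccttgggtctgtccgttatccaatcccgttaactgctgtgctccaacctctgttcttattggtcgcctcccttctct
HIBADH, chr7:27702674-27702774, height 64: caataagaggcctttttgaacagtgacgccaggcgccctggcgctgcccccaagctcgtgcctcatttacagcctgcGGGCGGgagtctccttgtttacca
In the 109 bp gap of HDGFL2, 83.0% of the 16-base words occurred 100 or more times in the genome, and in the 196 bp gap of HIBADH 42.5% did. HNRNPL, a splicing regulator, had 60 at 410 bp before one start and, across a gap of 873 bp, 16 at 268 bp before a start further upstream. BAHCC1 had 48 and 16, and the microRNA gene MIR4721 had 53 and 16, although its high peak lay 108 bp from a start of SH2B1. The highest peaks of this group stood at MAP3K11, a kinase of the JNK pathway, with 27, 29 and 72, at NEU1, a lysosomal sialidase, with 69 and 28, and at ETV5, an ETS family factor, with 68 and 42. RRAS, a small GTPase, with 45 and 64 equalled the 64 of HDGFL2 and HIBADH. The peak of 72 labelled MAP3K11 lay 224 bp from a MAP3K11 start and 170 bp from a start of the neighbouring gene PCNX3.

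In close pairs the higher peak was mostly the one nearer the canonical start of the gene. Of 211 genes with 2 unequal peaks and a canonical start in GENCODE at unequal distances, the nearer peak was the higher in 150 (71.1%, 64.6 to 76.8). The peak nearer the canonical start, at whatever distance, had a median height of 29 (27 to 32) and a width of 1183 bp (1053 to 1342). The other peak had 23 (23 to 25) and 692 bp (644 to 763, n = 221). The higher peak was also the wider in 147 of 221 genes (66.5%, 60.1 to 72.4). Along the direction of transcription, the downstream peak was the higher in 127 of 218 genes (58.3%, 51.6 to 64.6). With the mean signal per base in place of height, the higher peak was the wider in 58.4%. With total signal in place of height, the upstream peak was the higher in 31.6%, against 41.7% by height. It was the higher in 46.9% with the mean signal per base, and in 48.0% by height at a gap limit of 2000 bp.

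**Figure D2:**
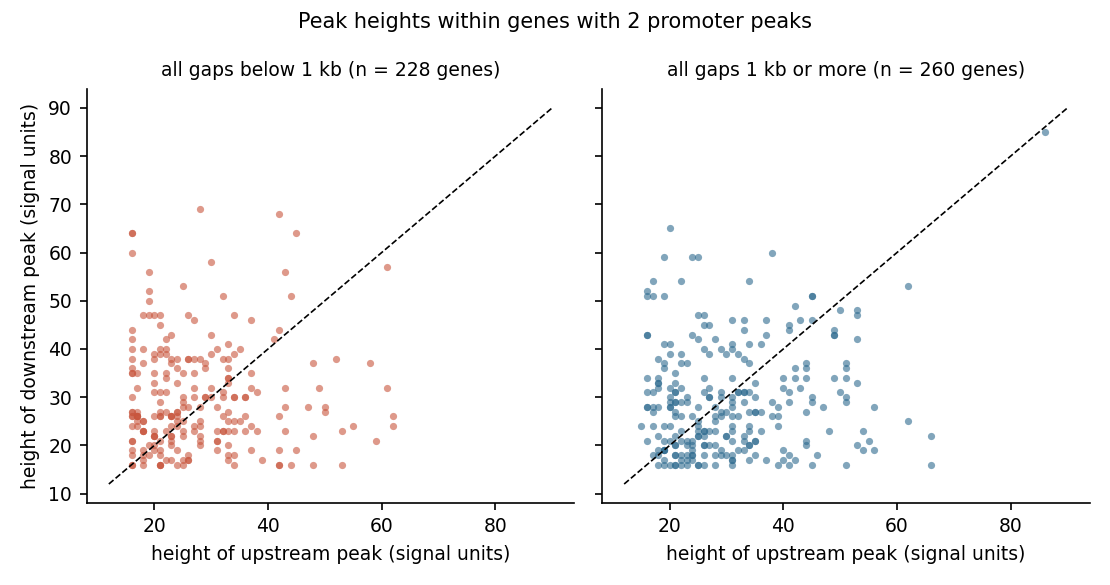
Height of the upstream peak (x axis) against that of the downstream peak (y axis), in signal units, for each gene with 2 promoter peaks and a known strand, for gaps below 1 kb (228 genes) and of 1 kb or more (260 genes). The dashed line marks equal height, and points spread widely on both sides of it in both panels.

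CEBPE, which encodes a factor of late granulocyte differentiation (ENSG00000092067, minus strand of chromosome 14 from 23586245 to 23589465), held a peak of height 35 and 1890 bp, with its apex 39 bp inside a start. A second peak of 461 bp and height 16 lay 308 bp further upstream, with its apex 716 bp before the nearest CEBPE start. SKI, a corepressor of the TGF-β pathway (ENSG00000157933, plus strand of chromosome 1 from 2158827 to 2241652), showed the opposite order of width and height. Its upstream peak was 33 high and 1284 bp wide, and its downstream peak 23 high and 3403 bp wide. The 631 bp between them had 90.5% G and C and 22.4 CpG per 100 bp, held the canonical SKI start, which lies downstream of the first annotated base of the gene, and had none of the many-copy words. LYL1, a haematopoietic bHLH factor, had 51 at 67 bp before a start and 44 further upstream across 179 bp, in which 81.7% of the words were of the many-copy kind. CHD3, a remodeller of the NuRD complex, had 18, 32 and 17, with the middle apex 52 bp inside a start.

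Gap sequence differed from that of the peaks beside it. The 283 gaps below 1 kb had a median of 53.0% G and C (51.6 to 54.7), against 60.3% (59.7 to 60.8) in the flanking peaks, and 72 gaps (25.4%) had more G and C than their peaks. They held 3.47 CpG per 100 bp (2.98 to 3.98), against 5.98 (5.56 to 6.19) in the peaks. Gaps between unlabelled peaks had 49.4% G and C (48.5 to 50.1) beside 53.6% (53.0 to 54.1) in their peaks. Annotated starts of the gene lay in 37 of 280 gaps (13.2%, 9.74 to 17.7), which comes to 0.503 starts per kb of gap against 2.25 per kb of the flanking peaks. In 25.8% of the gaps (21.1 to 31.2, n = 283), 50% or more of the 16-base words occurred 100 or more times in the genome. The same held for 1.06% of the peaks beside them (0.487 to 2.29, n = 566) and for 13.5% of stretches of the gap's length just outside the pair (10.8 to 16.8, n = 510). Between unlabelled peaks, 25.4% of gaps (21.9 to 29.4, n = 507) were of this kind and 15.4% of the stretches outside (13.2 to 17.9, n = 914). In split promoters, the median share of such words was 3.96% in the gaps (1.87 to 8.48, n = 283). It was 1.24% in single peaks (0.948 to 1.45) and 1.03% in single stretches outside (0.696 to 1.67). The gap had a larger share than both its peaks pooled in 62.2% of pairs (56.4 to 67.6). With both outside stretches of a pair pooled, the gap had the larger share of such words in 53.3% of pairs (47.2 to 59.4, n = 255), and the median share was 6.13% outside (3.43 to 9.55), beside 3.96% (1.87 to 8.48, n = 283) in the gaps. Between unlabelled peaks the gap had the larger share in 47.3% (42.7 to 51.9, n = 457). No such word at all was found in 27.6% of the gaps of split promoters (22.7 to 33.0), 16.8% of their peaks (13.9 to 20.1) and 36.3% of the stretches outside (32.2 to 40.5), which are of unequal length to the peaks. The part of this sequence in the splitting was not tested. Gaps with none of these words included those of SKI, H2BC4, TRAK2, SRP9 and GMEB2.

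**Figure D3:**
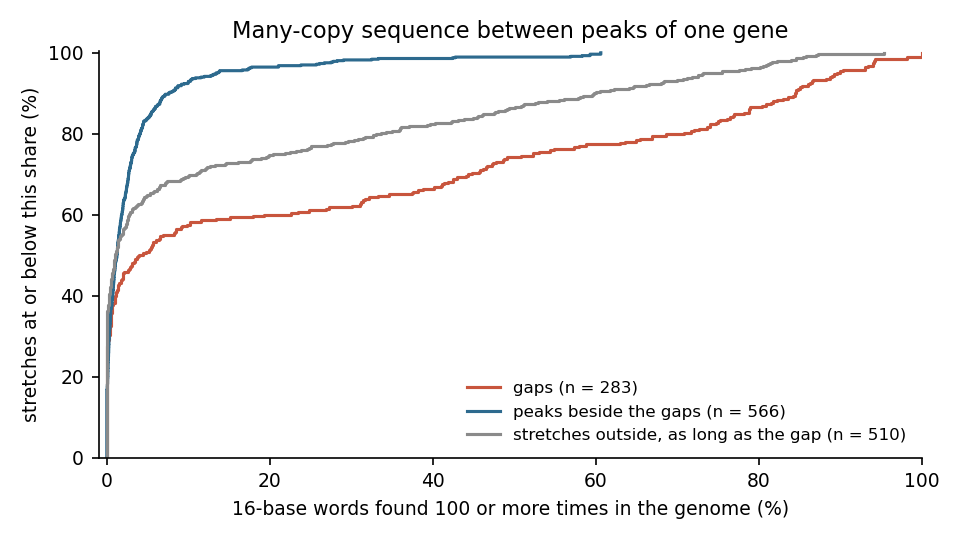
Cumulative share of stretches (y axis) by the percentage of their 16-base words found 100 or more times in the genome (x axis), for 283 gaps below 1 kb, the peaks beside them and stretches of the same length just outside. Beyond the lowest shares the curve of the gaps runs below the other two, with 25.8% of gaps at 50% or more against 1.06% of peaks and 13.5% of single outside stretches. Against both outside stretches of its own pair together, the gap had the larger share in 53.3% of pairs and an equal share in 7.06%.

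Where every gap was 1 kb or more, peaks lay a median of 5621.5 bp apart at their closest (3356 to 8082, n = 286 genes) and up to 290576 bp. Peaks covered a median of 27.4% of the span (18.8 to 35.6). The highest peak had a median height of 34 (32 to 37) and the lowest of 22 (21 to 23), with a median fold of 1.41, or 0.50 on the log2 scale (0.43 to 0.56), and with total signal the median log2 ratio was 1.16. A fold of 2 or more was found in 48 of 286 genes (16.8%, 12.9 to 21.5). Upstream and downstream heights again showed little rank relation (rho 0.077 across 260 genes). The peak nearer the canonical start was the higher in 128 of 254 genes (50.4%, 44.3 to 56.5), an interval that does not overlap that of close pairs, and both peaks had a median height of 28 (26 to 30, n = 260). The nearer peak was nonetheless the wider in 165 of 260 genes (63.5%, 57.5 to 69.1). The upstream peak was the higher in 149 of 254 genes (58.7%, 52.5 to 64.5). It was the higher in 54.2% with the mean signal per base, 56.9% with total signal and 55.7% at a gap limit of 2000 bp. By distance, it was the higher in 65.4% of genes with a largest gap of 1 to 2 kb (51 of 78), 64.7% with 2 to 10 kb (44 of 68) and 50% with 10 kb or more (54 of 108), and their 95% intervals overlap.

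Many distant peaks lay at separate annotated starts of the gene. In 188 of 284 genes (66.2%, 60.5 to 71.5) at least 2 peaks lay within 1 kb of starts of the gene that were themselves 1 kb or more apart, against 58 of 239 genes (24.3%, 19.3 to 30.1) with close peaks. Peaks that are further apart can reach starts that are further apart, so part of this difference follows from the division by distance. A symbol was given only where the apex overlapped a promoter, so part of it also follows from the labelling. Every peak lay within 1 kb of a start in 62.3% of the distant group (56.6 to 67.8) and in 57.7% of the close group (51.4 to 63.8). The order of the groups depended on this limit, with 47.9% of the distant and 33.1% of the close group at 500 bp and 77.1% and 93.3% at 2000 bp. The genes with gaps from 1 to 2 kb stood apart from the more distant ones. Of those whose largest gap was 1 to 2 kb, 31 of 84 (36.9%, 27.4 to 47.6) had every peak at a start, beside 55 of 72 (76.4%, 65.4 to 84.7) with 2 to 10 kb and 91 of 128 (71.1%, 62.7 to 78.2) with 10 kb or more. The intervals of the first and the other 2 groups do not overlap, and the labelling and the division by distance bear on these shares too. Protein-coding genes with distant peaks had a median of 11 distinct annotated starts (10 to 13, n = 275) and a length of 41459 bp (33861 to 48582). Genes with close peaks had 8 (7 to 9, n = 224) and 22460 bp, and genes with 1 peak had 8 (7 to 8, n = 5564) and 31757 bp.

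**Figure D4:**
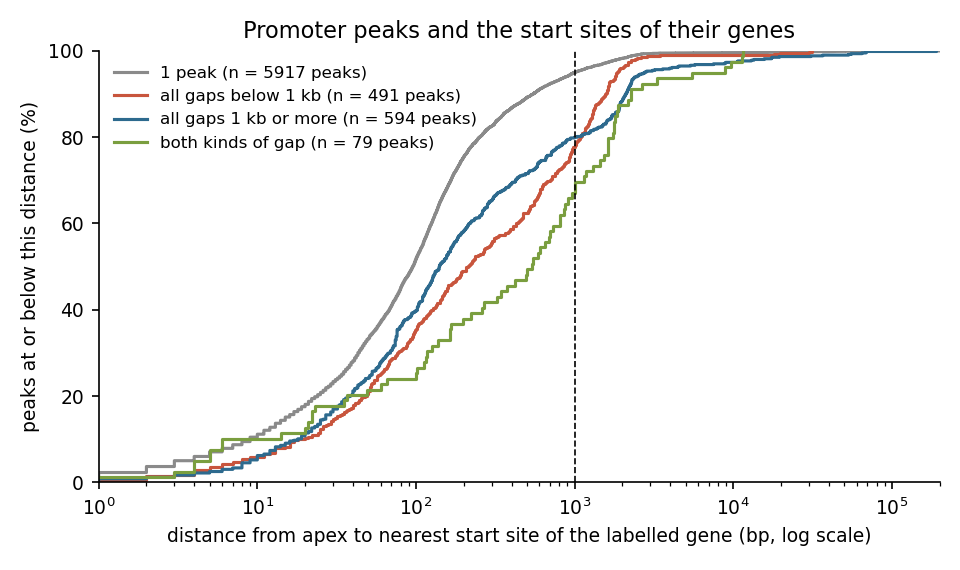
Cumulative share of promoter peaks (y axis) by the distance from the apex to the nearest annotated start of the labelled gene (x axis, bp, log scale), for genes with 1 peak and for the 3 kinds of split promoter. At the dashed line of 1000 bp, 95.0% of single peaks, 78.0% of close peaks, 80.0% of distant peaks and 68.4% of peaks of genes with both kinds of gap have been reached.

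Single promoter peaks lay nearer to starts than the peaks of split promoters did. The apex was within 200 bp of a start of the labelled gene in 75.4% of single peaks (74.3 to 76.5, n = 5917), 58.2% of distant peaks (54.2 to 62.2, n = 594), 49.1% of close peaks (44.7 to 53.5, n = 491) and 38.0% of peaks of genes with both kinds of gap (28.1 to 49.0, n = 79). A gene that holds 2 peaks 1 kb apart cannot have both within 200 bp of 1 start, so these shares partly follow from the choice of genes. Introns held the apex of 44.8% of distant peaks (40.8 to 48.8), 28.9% of close peaks (25.1 to 33.1) and 20.4% of single peaks (19.4 to 21.5). Other peaks lay between the members in 68 of the 286 genes with distant peaks (23.8%, 19.2 to 29.0), and in 8 of these a peak labelled with another gene did.

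RUNX1, a master regulator of blood stem cells and a frequent target of leukaemic lesions (ENSG00000159216, minus strand of chromosome 21 from 36160098 to 37376965), had 3 high peaks. In the direction of transcription, a peak of height 74 lay 2165 bp upstream of the nearest start, a peak of 48 lay 29 bp inside a start, and a peak of 47 stood 157379 bp further on, 65 bp before another start. The 74 exceeded 99.9% of the heights in the list. The windows of the first and last apex are shown because these peaks stand at opposite ends of the gene's peaks, with AGGTCA, the core site of retinoid and related receptors, and the GC box in capitals.
RUNX1, chr21:36423756-36423856, height 74: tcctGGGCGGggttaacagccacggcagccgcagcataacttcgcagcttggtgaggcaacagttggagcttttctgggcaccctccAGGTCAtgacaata
RUNX1, chr21:36261002-36261102, height 47: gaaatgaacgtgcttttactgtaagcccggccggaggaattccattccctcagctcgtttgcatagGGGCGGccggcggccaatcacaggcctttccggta
AGGTCA was present in the window of 74 and not in that of 47, and nothing is read from these letters about the factor.

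RARA, the receptor from which the fusion takes its DNA-binding domain (ENSG00000131759, plus strand of chromosome 17 from 38465432 to 38513895), held peaks of 16, 41 and 34, all with their apex in introns. The peak of 41 lay 120 bp before an internal start, and the peak of 34 lay 7492 bp from the nearest start. The apex of the latter held the core site AGGTCA, in capitals here as its reverse complement.
RARA, chr17:38486685-38486785, height 34: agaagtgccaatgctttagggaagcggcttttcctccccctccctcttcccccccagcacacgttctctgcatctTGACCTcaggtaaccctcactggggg
MYB, a factor that keeps blood progenitors cycling (ENSG00000118513, plus strand of chromosome 6 from 135502446 to 135540311), held a peak of 4151 bp and height 34 over its main start. A second peak of 515 bp and height 24 lay across a gap of 11205 bp, with its apex 35 bp inside an internal start.

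MTMR4, a phosphatase of phosphoinositide lipids (ENSG00000108389, minus strand of chromosome 17 from 56566890 to 56595266), showed the largest contrast among distant pairs. The peak upstream had a height of 66 and stood 76 bp before one MTMR4 start, and the peak 1712 bp away had a height of 16 and stood 45 bp inside another. Around the apex of 66 the GC box occurred 3 times.
MTMR4, chr17:56595292-56595392, height 66: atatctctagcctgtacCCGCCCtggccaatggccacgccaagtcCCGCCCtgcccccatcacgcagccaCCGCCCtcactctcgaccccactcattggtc
Large contrasts were also found in GAS7 (16, 57 and 32 along the gene, over 179657 bp, each near its own start), UBALD2 (20 and 65), ESYT1, which tethers the endoplasmic reticulum to the plasma membrane (16 and 52), and SESN1, a p53 target (51 and 16), which ZNF292 equalled (16 and 51). The SESN1 apex of 51 lay 46 bp from a start of CEP57L1. MDC1, an adaptor of the DNA damage response (ENSG00000137337, minus strand of chromosome 6 from 30667584 to 30685224), was the reverse case, with 86 and 85 along the gene, beside a highest value of 87 in the whole list. Its peak of 85 lay 124 bp before an MDC1 start. The peak of 86 lay 2751 bp from the nearest MDC1 start and 154 bp from a start of TUBB, a β-tubulin gene. LPXN, a focal adhesion adaptor, had 66 and 22, and RPS6KA1, a kinase downstream of ERK, had 27, 66 and 46, in each case at different starts of the gene.

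The widest spans belonged to long genes. RERE, a transcriptional corepressor, held peaks of 20, 31 and 28 in the order of transcription over 395171 bp, MAD1L1, a spindle checkpoint protein, 22 and 37 over 293920 bp, and PRKAG2, an AMPK subunit, 18 and 22 over 246522 bp. AKAP13 had 33 and 19 over 239112 bp and TMEM131 25 and 16 over 235608 bp. Every peak of these 5 genes had its apex within 1 kb of a start of its own gene. SEPTIN9, a cytoskeletal GTPase, held 4 peaks of 39, 24, 43 and 25 over 157118 bp, each at a different start. PLEC, which encodes the cytolinker plectin, held 4 peaks of 29, 26, 20 and 24 along the direction of transcription.

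The 23 genes with gaps of both kinds held peaks less than 1 kb apart as well as peaks separated by 1 kb or more. Their highest peak had a median height of 37 (32 to 43), their lowest 18 (17 to 20), and a fold of 2 or more was found in 12 of 23 (52.2%, 33.0 to 70.8). Each of these genes has 3 or more peaks, and the contrast between the extremes of more peaks tends to be larger by construction. DAGLB, a lipase that makes the endocannabinoid 2-arachidonoylglycerol (ENSG00000164535, minus strand of chromosome 7 from 6448757 to 6523821), held 5 peaks of 27, 30, 29, 24 and 30 along the gene, a range of 1.25-fold. LMO2, a bridging protein of haematopoietic factors (ENSG00000135363, minus strand of chromosome 11 from 33880122 to 33913623), had 36, 16 and 23 around its most upstream start. A peak of 17 stood at a start further downstream, across a gap of 20428 bp. The peak of 36 lay 1887 bp before that most upstream start. The bases within 50 bp of its apex held none of the 5 motifs searched, although GGAAGT occurred in the 300 bp around it.
LMO2, chr11:33915460-33915560, height 36: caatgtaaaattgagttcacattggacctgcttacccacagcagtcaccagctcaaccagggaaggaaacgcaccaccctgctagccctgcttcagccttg
GNAI2, an inhibitory G protein subunit (ENSG00000114353, plus strand of chromosome 3 from 50263724 to 50296794), had 19, 32, 56 and 23, all within 1 kb of starts. Its 216 bp gap between the peaks of 19 and 32 had 94.0% many-copy words. FGR, a Src family kinase of myeloid cells, had 27, 32, 21 and 16, and DGKZ, a diacylglycerol kinase, had 19, 42, 21 and 18. NOD2, an intracellular sensor of bacterial wall fragments, had 24, 17, 21 and 19, of which the first lay within 1 kb of a start. FOXK2 had 22 at its main start and 32, 16 and 17 in a cluster after a gap of 70868 bp, and RNF220 had 23, 40, 28 and 16. H2BC13 had 22, 19, 19 and 19 in a cluster of histone genes, where 3 of the 4 apexes lay nearer a start of another histone locus.

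**Figure D5:**
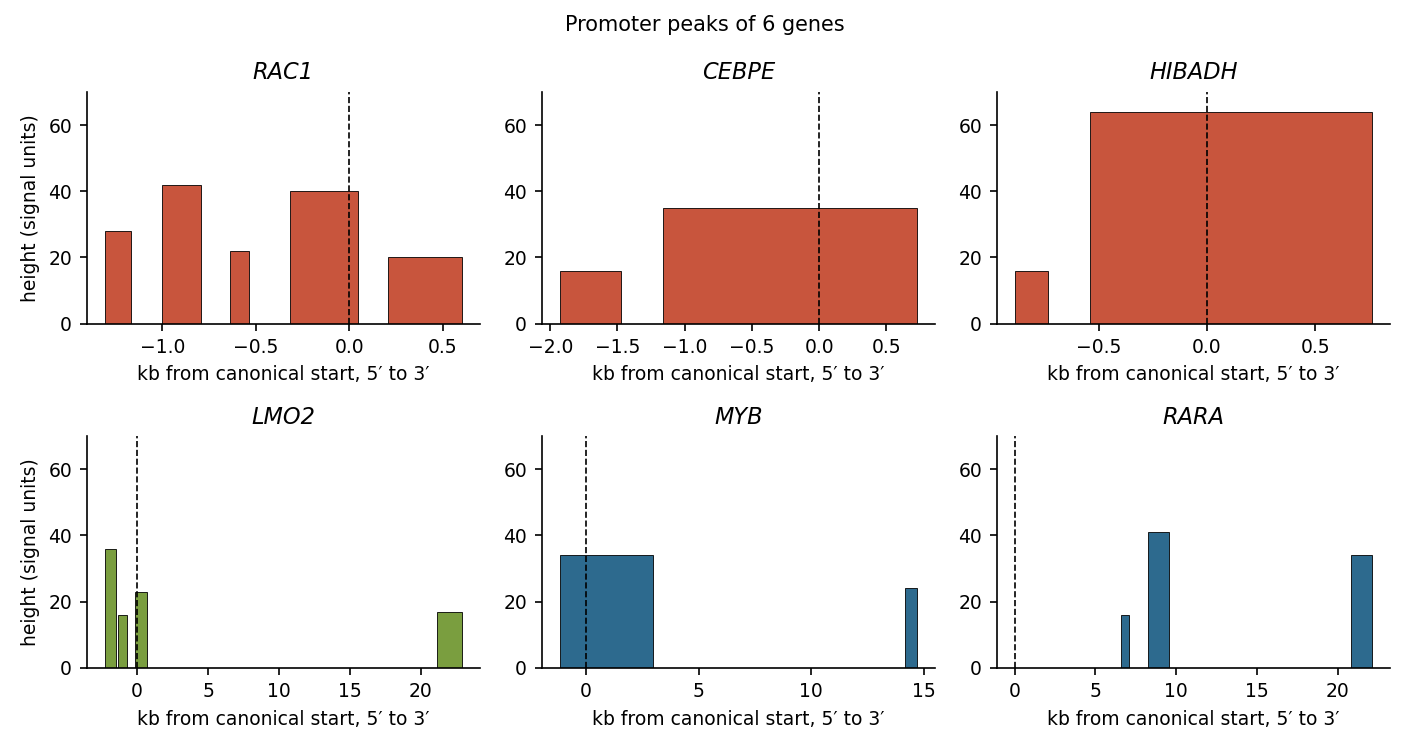
Promoter peaks of RAC1, CEBPE, HIBADH, LMO2, MYB and RARA as blocks, with position in kb from the canonical start (dashed line) in the direction of transcription on the x axis and height in signal units on the y axis. Red marks genes with gaps below 1 kb, blue 1 kb or more and green both. The x axes differ in scale, from about 2 kb for RAC1 to over 20 kb for LMO2 and RARA.

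Genes of blood cell regulation and signalling were counted among the split promoters against the 8.42% of all labelled genes. Of 75 haematopoietic transcription factor genes with a promoter peak, 15 were split (20%), 7 with close peaks, 6 with distant peaks and 2 with both. Among them, IRF1, an interferon-induced factor, had 37 and 43, and TFEB, a regulator of lysosome genes, had 20, 56 and 33 along the gene. RUNX3, whose highest peak equalled that of IRF1, had 43, 23 and 17 from the highest to the lowest. In a signalling list of kinases and phosphatases that also holds small GTPases and lipid enzymes, 14 of 55 were split (25.5%), 9 of them with distant peaks. This list was drawn up with RAC1 and DAGLB, both among the 14, known to have the most peaks, and without them 12 of 53 were split (22.6%). PRKACA, a catalytic subunit of protein kinase A, had 56 and 28, CSK, which restrains Src kinases, had 44 and 27, MAP2K3, a p38 activator, had 41 and 45, and SGK1 had 45 and 30. Of 20 retinoid and nuclear receptor genes, 5 were split (25%). They included RXRA, the partner of RARA, with 32, 17 and 27, NR1D1, a clock repressor, with 49 and 44, and PPARD with 28 and 23. Corepressors and chromatin regulators were split in 7 of 60 (11.7%), among them KDM2A (27 and 45) and KDM2B (16 and 43). Of the 24 genes named by the study that had a promoter peak, 4 were split (16.7%), CEBPE and SKI with close peaks and MYB and RARA with distant peaks. The lists overlap, were drawn up with earlier results of these data known, and were not tested. Their shares carry no intervals, and several rest on few genes.

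Of 9 zinc-response genes with a promoter peak, MT1A, which encodes a metal-binding metallothionein, was split (11.1%), with heights of 18 and 47. Its peaks lay 31317 and 30149 bp upstream of MT1A, and the apex of 47 was 67 bp from a start of MT2A, a near-identical family member. MT1A was 1 of 12 genes with no apex within 1 kb of any of their GENCODE starts. Another was RXRA, whose 3 apexes lay 18065, 19622 and 21127 bp downstream of the nearest start. NR1D1 was also among them, with both apexes in introns, 1326 and 4457 bp downstream of the start. Its upstream peak nonetheless extended over that start. The others were ARHGAP45, ATP13A2, DCST1-AS1, MIR4721, SNORA33, SNX29P2, TCIRG1, TWF2 and ZMIZ1, named for this property after their values were seen. The authors took their labels from another gene set, UCSC known genes, and 5 further genes could not be matched to GENCODE. With the higher peak first, these were FLJ37453 (heights 38 and 21), LOC284454 (52 and 34), LOC648987 (40 and 21), MIR5087 (21 and 16) and SNORD25 (49 and 17). Among close peaks, 7.13% (5.17 to 9.75) lay over 1 kb from any start of the labelled gene and within 1 kb of a start of another gene, against 4.88% (3.42 to 6.92) of distant peaks and 2.23% (1.88 to 2.64) of single peaks.

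Motifs were searched on both strands in 300 bp centred on each apex, and none of the 5 contains another. AGGTCA was present in 19.1% of distant peaks (16.1 to 22.4, n = 598), 14.7% of close peaks (11.8 to 18.1, n = 497) and 12.1% of single promoter peaks (11.3 to 13.0, n = 5995), beside 18.5% of all 15412 peaks. TGACTCA, the AP-1 site, was present in 10.0% of distant peaks (7.87 to 12.7), 5.63% of close peaks (3.93 to 8.02), 4.09% of single peaks (3.61 to 4.62) and 12.9% of all. GGAAGT, an ETS type site as of PU.1, was present in 35.5% of distant, 30.4% of close and 31.5% of single peaks and 37.3% of all. CACGTG, the E box, was present in 10.7%, 8.25%, 10.3% and 8.77% in the same order. GGGCGG, the GC box, was present in 54.5% of distant peaks (50.5 to 58.5), 60.4% of close peaks (56.0 to 64.6), 73.8% of single peaks (72.7 to 74.9) and 44.9% of all. The windows had a median of 62% G and C in distant peaks, 61% in close peaks and 65.3% in single peaks, and the part of base composition in these shares was not tested.

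Within close pairs, motifs differed between the peak nearer the canonical start and the other one. GGGCGG was present in 75.6% of the near peaks (69.5 to 80.8) and 46.6% of the far ones (40.1 to 53.2), and AGGTCA in 9.05% of the near (5.93 to 13.6) and 19.9% of the far (15.2 to 25.7, n = 221 each). The near peaks had a median of 64% G and C and the far ones 58%. In distant pairs the far peak likewise had less GGGCGG (43.1%, 37.2 to 49.2) than the near one (66.9%, 61.0 to 72.4), and more TGACTCA (13.1%, 9.51 to 17.7, against 6.15%, 3.82 to 9.76, with slightly overlapping intervals), while AGGTCA was present in 20.0% and 18.1% (n = 260 each). Sorted by height instead, GGAAGT was present in 39.5% of the higher (33.7 to 45.6) and 28.1% of the lower peaks (23.0 to 33.9) of distant pairs, intervals that overlap slightly, and in 29.0% and 30.8% of close pairs. The higher peaks are also the wider ones in most genes, and the part of width in these shares was not tested.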

How the data were processed

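Single-end Cut&Run reads were trimmed by the authors (Trimmomatic) and placed on hg19 (Bowtie2). Duplicates (SAMtools) and reads in blacklisted regions (Bedtools) were taken out. SEACR then made peaks relative to a matched control, and those below an IDR of 0.05 between 2 replicates were retained. Symbols from UCSC known genes were added by the authors where the apex overlapped a promoter. The deposited list gives for each peak a score, which its values show to be the largest signal, called height here. It also gives a value named summit, which its values show to be the total signal. Both are whole numbers. The normalization of the height and the total signal before the list was deposited is not given in the sources used here. Whether they come from 1 replicate or pooled reads is not given either. Depth per library is unknown.

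The apex was the midpoint of the interval of largest signal, or its start in 34 peaks that lack an end. Distances between a peak and a start of transcription were measured from the apex. Starts came from GENCODE release 44 on GRCh37, the same build, to which 6469 of 6546 symbols matched directly or through RefSeq synonyms. Sequences came from the GRCh37 assembly, which is not soft-masked, so the planned share of masked bases was not run. A count of 16-base words was used in its place, chosen after sequences had been read.

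The genes and lists were chosen with earlier results of these data known. Named were the genes with the most peaks, those named by the study, in both main groups the 5 with the largest ratio, the highest peak or the extreme distance, examples from each list with the highest peaks, and 3 pairs on either side of 1000 bp, with ties at the last place named too. Other limits, signal measures and gene sets were tried as alternatives. The grouping, motif and word functions were tested on simulated data. The work used Python 3.11.15 with pandas 2.3.3 and numpy 2.4.6 for tables, pysam 0.24.0 for sequence, scipy 1.17.1 for intervals and matplotlib 3.10.9 for figures.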

Additional observations from a re-analysis of the deposited data

How the results depend on the processing

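No paired analysis was possible because replicates have no separate values in these data, which also kept any replicate from being left out. Of 50 alternatives over 12 results, 34 stayed within 1.5 times a count or within the 95% interval of a value. The signalling list without RAC1 and DAGLB, chosen after seeing the data, was among the 34. With peaks at or above the median height, 216 genes were split, 87 with close and 125 with distant peaks. With peaks of a gene below 1000 bp apart merged, 309 genes had several peaks. The 309 are fixed by the grouping, as the genes with distant peaks and those with gaps of both kinds. A limit of 2000 bp left 186 genes with distant peaks. Measured from apex to apex, 76 genes had close and 464 distant peaks, a distance that by construction includes part of both peaks. With total signal, which grows with width, the median log2 ratio of highest to lowest peak was 1.31 for close and 1.16 for distant peaks, and the upstream peak of close pairs was the higher in 31.6%. With the mean signal per base, the higher peak of close pairs was the wider in 58.4%, and the upstream peak was the higher in 46.9%. Every peak lay near a start in 33.1% of genes with close and 47.9% with distant peaks at 500 bp, in 93.3% and 77.1% at 2000 bp, and in 52.6% of those with distant peaks when starts of protein-coding transcripts alone were used. At 500 and 2000 bp the order of the 2 groups is opposite.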
